A study of Mus musculus with 9 samples.

Results

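The small leucine-rich proteoglycans (SLRPs) examined here were decorin (Dcn), biglycan (Bgn), asporin (Aspn), fibromodulin (Fmod), lumican (Lum), prolargin (Prelp), osteomodulin (Omd), osteoglycin (Ogn) and podocan (Podn). They were taken as every probe set whose platform annotation names exactly 1 gene, that gene being a member, which gave 20 probe sets of the 45037 tested and 9 genes of 18193. All 9 members were measured. RNA came from the left ventricles of C57BL/6 males at 6 weeks after surgery. Transaortic constriction (TAC, 4 arrays) narrows the aorta, so that the ventricle pumps against a raised pressure, and sham surgery (5 arrays) leaves the aorta open. All mice were of the same strain and sex, no genetic change is named, and the labels give no age, batch or pairing. The labels list 1 sample per array without tying each to its own animal, so the p-values rest on the spread among the samples given, and that spread may be technical.

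SLRPs are secreted proteins built of leucine-rich repeats that fold into a curved solenoid. They bind the surface of collagen fibrils and set fibril width and spacing, they bind growth factors such as TGF-beta in the matrix, and pieces released from the matrix act as ligands of cell-surface receptors. In the heart they are made mainly by fibroblasts and other stromal cells, and several are used as markers of such cells.

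Most SLRP genes were higher after TAC, but by very different amounts. At the brightest probe set of each gene, Fmod was 15.7-fold higher, and Bgn, Prelp and Aspn 2.49-fold to 2.70-fold higher. Lum was 1.90-fold, Omd 1.57-fold and Dcn 1.40-fold higher. With the mean of all its probe sets, Fmod differed by 3.33 on the log2 scale, against 3.97 on the brightest. Podn and Ogn did not pass the test, and Ogn lay slightly below its sham level. In the limma fit over all probe sets, with Benjamini-Hochberg adjusted p below 0.05 as the threshold, 7 of the 9 genes were called higher at their brightest probe set, against 11.3% of all genes. The number called lower was 0 in limma, 0 at an unadjusted p below 0.05 and 0 with array weights, against 10.7% of all genes. The median difference of the 9 members was 0.92 on the log2 scale, and that of all 18193 genes was -0.0038. Of the 20 probe sets 16 were called higher, against 8.87% of all probe sets, and in 16 the TAC and sham arrays did not overlap, with TAC above, against 10.2% of all probe sets. Values are RMA signals in log2 units as deposited, and differences are TAC minus sham with the standard error (SE) of the fit. Levels of different genes were not compared, since probe sets differ in how brightly they report the same amount of RNA.

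A pair of arrays recurred at the low end. TAC replicate 4 was the lowest TAC array for 8 of the 9 members, against 27.8% of all genes, and sham replicate 2 the lowest sham array for 7 of them, against 36.8% of all genes. Sham arrays correlated at 0.987 to 0.997 across genes, TAC arrays at 0.995 to 0.997, and arrays of different groups at 0.974 to 0.988. Without both of these arrays, a check chosen after the data were seen, the same number of members was called higher (7), and Fmod differed by 3.86, Bgn by 1.35, Aspn by 1.42, Prelp by 1.44, Lum by 1.02, Omd by 0.66 and Dcn by 0.57.

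**Figure D1:**
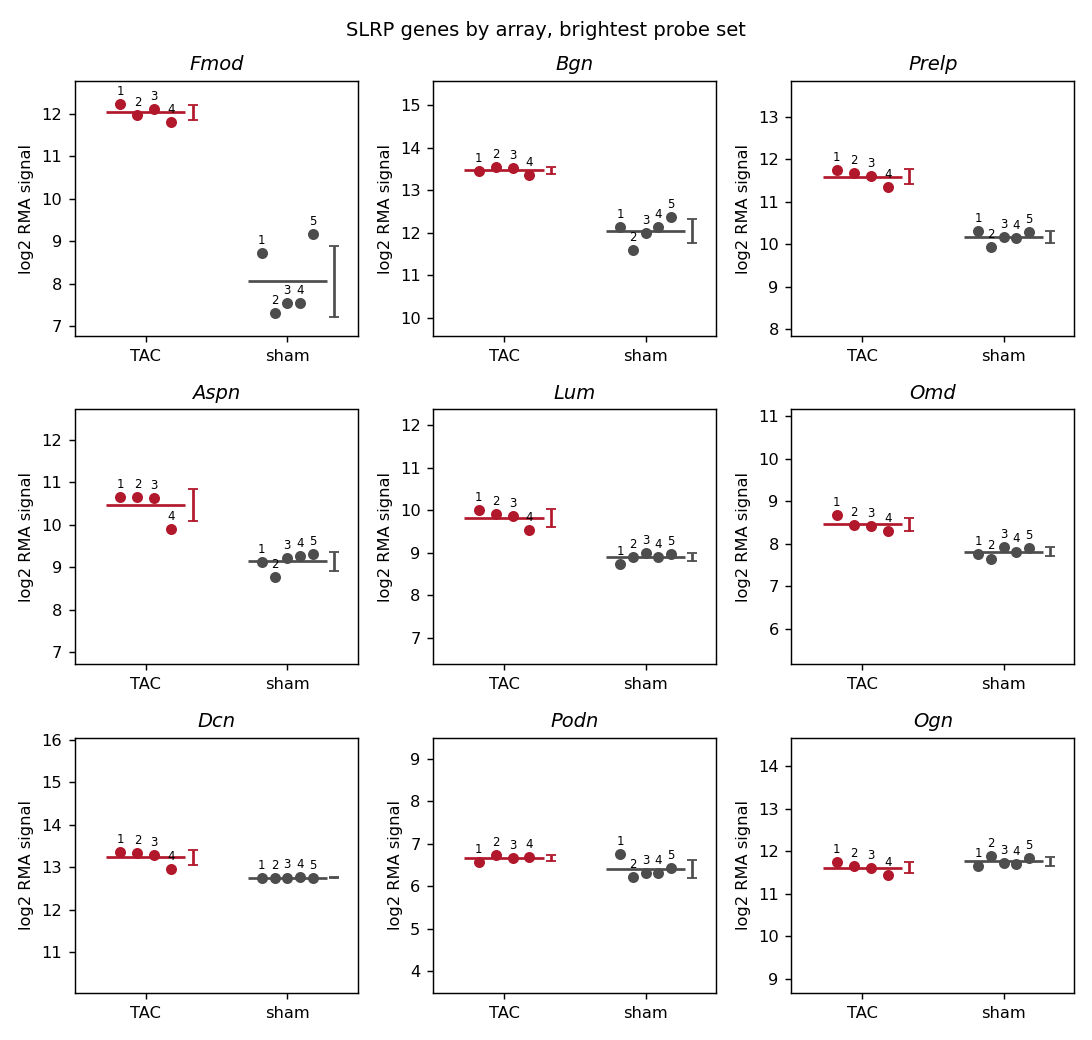
Log2 RMA signal of the brightest probe set of each SLRP gene, TAC arrays (red, left, n = 4) and sham arrays (grey, right, n = 5), numbered by replicate. Lines are group means and bars are SD; every panel spans the same range, so that the 3.97 gap of Fmod can be set against the -0.15 of Ogn.

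SLRP genes lie in groups along the chromosomes, and promoters are shown first for 4 genes whose results are set against each other below: Fmod, the member with the largest increase, and Aspn, Omd and Ogn, which lie next to each other on chromosome 13 and differed in their response. Each is the 250 bases before the gene start in RefSeq on GRCm38.p6, all on the plus strand, at chr1:134037004-134037253 for Fmod, chr13:49544193-49544442 for Aspn, chr13:49582212-49582461 for Omd and chr13:49607765-49608014 for Ogn. Capitals mark matches, on either strand, to the TATA box TATAAA, the AP-1 motif TGANTCA, the SMAD motif CAGAC, the E-box CANNTG, which binds helix-loop-helix factors such as scleraxis, and the TEAD motif GGAATG. The 5' to 3' sequences follow.
Fmod: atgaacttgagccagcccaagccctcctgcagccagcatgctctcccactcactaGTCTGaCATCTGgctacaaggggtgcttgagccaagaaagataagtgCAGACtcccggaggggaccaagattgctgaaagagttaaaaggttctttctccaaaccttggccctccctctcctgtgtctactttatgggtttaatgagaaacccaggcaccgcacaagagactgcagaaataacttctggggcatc
Aspn: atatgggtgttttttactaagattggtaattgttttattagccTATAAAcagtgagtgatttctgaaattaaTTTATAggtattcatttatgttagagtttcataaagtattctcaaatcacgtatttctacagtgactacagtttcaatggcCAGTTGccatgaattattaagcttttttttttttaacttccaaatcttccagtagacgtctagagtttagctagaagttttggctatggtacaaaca
Omd: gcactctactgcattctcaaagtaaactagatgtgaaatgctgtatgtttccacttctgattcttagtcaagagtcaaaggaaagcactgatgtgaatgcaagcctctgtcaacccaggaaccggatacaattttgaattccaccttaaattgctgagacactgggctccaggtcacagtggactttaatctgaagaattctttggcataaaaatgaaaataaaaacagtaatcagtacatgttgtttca
Ogn: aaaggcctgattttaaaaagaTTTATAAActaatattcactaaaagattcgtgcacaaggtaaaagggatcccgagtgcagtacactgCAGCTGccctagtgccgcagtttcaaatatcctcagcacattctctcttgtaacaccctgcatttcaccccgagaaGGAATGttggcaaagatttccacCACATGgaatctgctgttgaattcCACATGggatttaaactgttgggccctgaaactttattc
The Fmod promoter held matches to the SMAD motif at 195 to 191 and 148 to 144 bases before the start, and an E-box at 189 to 184. The Aspn promoter held TATA box matches at 207 to 202 and 178 to 173 bases before it, and an E-box at 97 to 92. The Ogn promoter held overlapping TATA box matches at 229 to 224 and 227 to 222, E-boxes at 162 to 157, 63 to 58 and 39 to 34, and a TEAD motif at 86 to 81. No match to any of the 5 motifs was found in the Omd window, which says only that these letters are not in it. Among 32851 RefSeq promoters, 12.4% held the TATA box, 6.7% the AP-1 motif, 42.2% the SMAD motif, 66.2% an E-box and 12.6% the TEAD motif. Promoters were matched for 7 of the 9 members, with 8 promoter entries in all, and the AP-1 motif was in 0 of these 8. The E-box was in 6 of the 8, the SMAD motif in 2, the TATA box in 2 and the TEAD motif in 1. With 8 promoters these counts cannot be told from the shares of all promoters.

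Among the class I members, Bgn encodes biglycan, a chondroitin or dermatan sulfate proteoglycan that binds collagen and, when soluble, the innate receptors TLR2 and TLR4. Bgn measured 13.46, 13.55, 13.51 and 13.36 on the TAC arrays, against 12.12, 11.59, 11.99, 12.13 and 12.37 on the sham arrays. The groups did not overlap, and sham replicate 2 was the lowest array. The difference was 1.43 (SE 0.14, 95% confidence interval 1.13 to 1.73, adjusted p = 5.94e-05 in limma). Its other probe sets differed by 1.55 and 1.36, so all 3 moved by a similar amount.

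Aspn encodes asporin, a relative of biglycan with an aspartate-rich stretch and no glycosaminoglycan chain, known in cartilage to bind and restrain TGF-beta. It measured 10.65, 10.65, 10.63 and 9.89 on the TAC arrays, against 9.12, 8.77, 9.22, 9.25 and 9.31 on the sham arrays. The groups did not overlap, although TAC replicate 4 lay well below the other TAC arrays. The difference was 1.32 (SE 0.17, adjusted p = 0.000481 in limma), or 1.51 without TAC replicate 4, and the second probe set differed by 1.43 (adjusted p = 0.000106).

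Dcn encodes decorin, a dermatan sulfate proteoglycan that coats collagen fibrils and sequesters TGF-beta. It measured 13.35, 13.33, 13.30 and 12.96 on the TAC arrays, against 12.75, 12.74, 12.76, 12.77 and 12.75 on the sham arrays. The sham arrays were nearly identical (SD 0.012), and TAC replicate 4 was again the lowest TAC array, still above all sham arrays. The difference was 0.48 (SE 0.09, adjusted p = 0.00378 in limma). A dimmer Dcn probe set averaged 9.42 ± 0.38 in TAC and 9.49 ± 0.33 in sham (SD, n = 4 and 5) and differed by -0.07 (95% confidence interval -0.51 to 0.37, adjusted p = 0.865). The probe sets therefore disagreed, and with the mean of both Dcn was no longer called (0.21, adjusted p = 0.225).

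Among the class II members, Fmod encodes fibromodulin, which binds type I collagen, carries keratan sulfate and sulfated tyrosines, and guides collagen crosslinking by lysyl oxidase. It measured 12.22, 11.98, 12.11 and 11.81 on the TAC arrays, against 8.73, 7.32, 7.54, 7.53 and 9.17 on the sham arrays. The groups were far apart, and the sham arrays were themselves spread, with replicates 1 and 5 above the other sham arrays. The difference was 3.97 (SE 0.35, 95% confidence interval 3.19 to 4.75, adjusted p = 4.18e-05 in limma), which is a 15.7-fold increase with an interval of 9.11 to 27.0. The brightest probe set is of the kind named _x_at, which can hold probes that match other transcripts. The 5 other Fmod probe sets differed by 2.07 to 3.58, and the Fmod probe set without that suffix differed by 3.56 (SE 0.26, adjusted p = 1.27e-05). With the mean of all 6 probe sets the difference was 3.33. On the probe set without the suffix the TAC arrays averaged 9.47 ± 0.34 and the sham arrays 5.91 ± 0.54 (SD, n = 4 and 5), and the median of all probe sets was 6.57 on every array.

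Prelp encodes prolargin, which links basement membranes to collagen through heparan sulfate. It measured 11.74, 11.68, 11.60 and 11.35 on the TAC arrays, against 10.31, 9.95, 10.18, 10.15 and 10.29 on the sham arrays. No TAC array came within the sham range, and the spread was small in both groups. The difference was 1.42 (SE 0.10, adjusted p = 1.27e-05 in limma), and a dimmer probe set differed by 1.33 (adjusted p = 0.000583).

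Lum encodes lumican, a keratan sulfate proteoglycan needed for regular collagen spacing in the cornea. It measured 9.99, 9.91, 9.86 and 9.52 on the TAC arrays, against 8.74, 8.90, 8.98, 8.91 and 8.97 on the sham arrays. The groups did not overlap, and the difference was 0.92 (SE 0.10, adjusted p = 0.000164 in limma). Omd encodes osteomodulin, a tyrosine-sulfated keratan sulfate proteoglycan first known from bone. It measured 8.66, 8.44, 8.42 and 8.30 on the TAC arrays, against 7.76, 7.65, 7.91, 7.81 and 7.90 on the sham arrays. All TAC arrays lay above all sham arrays, and the difference was 0.65 (SE 0.09, adjusted p = 0.000728 in limma).

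Ogn, the class III member, encodes osteoglycin or mimecan, which acts in collagen fibril assembly. It measured 11.75, 11.66, 11.62 and 11.44 on the TAC arrays, against 11.67, 11.89, 11.72, 11.70 and 11.84 on the sham arrays. The groups overlapped, with TAC replicate 4 lowest and sham replicate 2 highest of all 9 arrays. The difference was -0.15 (95% confidence interval -0.33 to 0.04, adjusted p = 0.277 in limma), and the dimmer probe set differed by -0.18 (adjusted p = 0.482). The upper ends of their intervals, 0.04 and 0.16, lie below the difference of each of the 7 called members at its brightest probe set. The dimmer Dcn probe set, at -0.07, lay below both ends, so this does not hold for Dcn on every probe set.

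Podn, the class V member, encodes podocan, which restrains growth of smooth muscle cells in mouse arteries. It measured 6.58, 6.74, 6.66 and 6.69 on the TAC arrays, against 6.76, 6.22, 6.32, 6.31 and 6.44 on the sham arrays. Sham replicate 1 alone lay above the TAC arrays, while the other sham arrays lay below them. The difference of 0.25 (95% confidence interval 0.02 to 0.49) did not pass (adjusted p = 0.137 in limma), but did without sham replicate 1 (0.34, adjusted p = 0.0150) and with array weights (0.28, adjusted p = 0.0430).

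**Figure D2:**
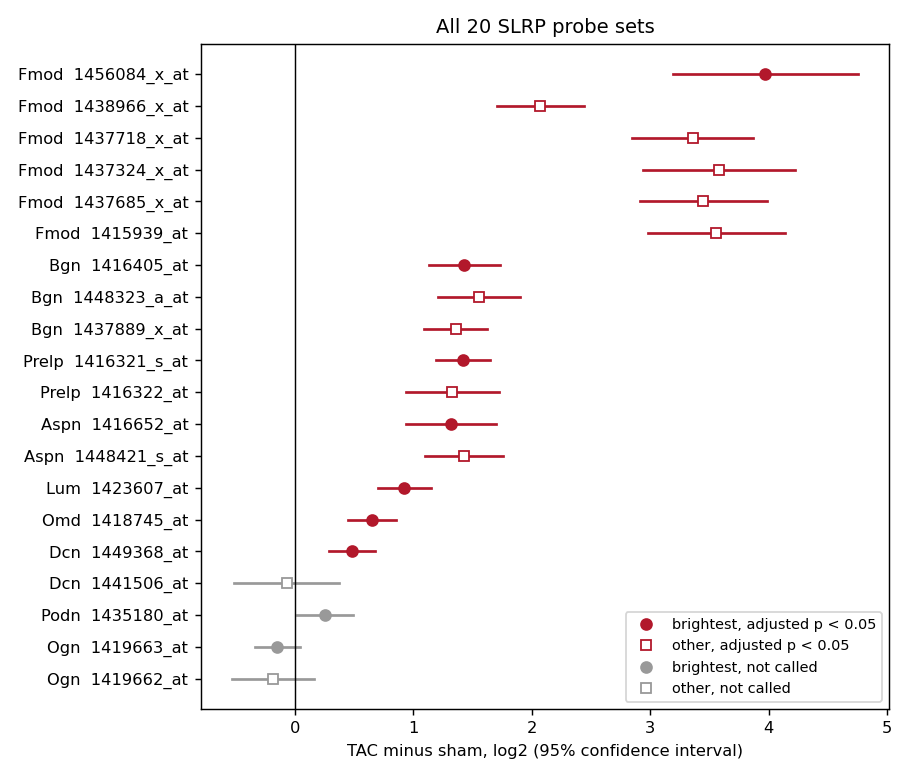
TAC minus sham difference on the log2 scale for each of the 20 SLRP probe sets, with 95% confidence intervals; circles are the brightest probe set of a gene, squares the others, red those with adjusted p below 0.05. All 6 Fmod probe sets lie above 2, both Ogn probe sets lie just below 0, and the 2 Dcn probe sets lie apart, at 0.48 and -0.07.

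Whether relatives or chromosomal neighbours changed by unequal amounts was tested for 7 pairs by taking the difference between the 2 genes on each array and comparing TAC with sham. In each of the 7 pairs the TAC and sham arrays did not overlap. Each therefore gave the smallest two-sided p that an exact permutation test over 126 splits allows, 0.00794. Adjusted over the 7 pairs, p was also 0.00794. How often pairs of other genes separate in this way was not counted, so the 7 have no share to stand beside. All the paired genes but Ogn also separated the groups on their own. The pairs share genes and were chosen with earlier results of these data known, so they are not 7 independent results. Bgn increased more than its close relative Dcn, by 0.95 on the log2 scale, which is a 1.93-fold larger change. Fmod increased more than its relative Lum by 3.05 and more than its neighbour Prelp by 2.55. Dcn increased less than its neighbour Lum, with a pair value of -0.44. On chromosome 13 Aspn exceeded Omd by 0.67 and Ogn by 1.47, and Omd exceeded Ogn by 0.80. A ratio within an array shows unequal change and cannot tell which of the genes is misreported by its probe sets.

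The order of the genes along the chromosomes places these differences side by side. On chromosome 1 the eye proteoglycan gene Optc (-0.02), Prelp and Fmod follow each other, and on chromosome 10 Dcn and Lum are followed by the corneal gene Kera (-0.15) and the cartilage gene Epyc (-0.17). On chromosome 13 the order is Ecm2 (0.21), Aspn, Omd and Ogn. The flanking genes, chosen by position after the values were seen, were Atp2b4 (0.27, adjusted p = 0.134 in limma) and Btg2 (0.68, adjusted p = 0.0505, past the threshold in 9 of 19 alternatives) on chromosome 1, Btg1 (0.15) and Ccer1 (-0.04) on chromosome 10, and Cenpp (0.11) and Nol8 (0.36, adjusted p = 0.0123) on chromosome 13. Only Nol8 of these 6 passed the test, where 11.3% of all genes were called higher.

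**Figure D3:**
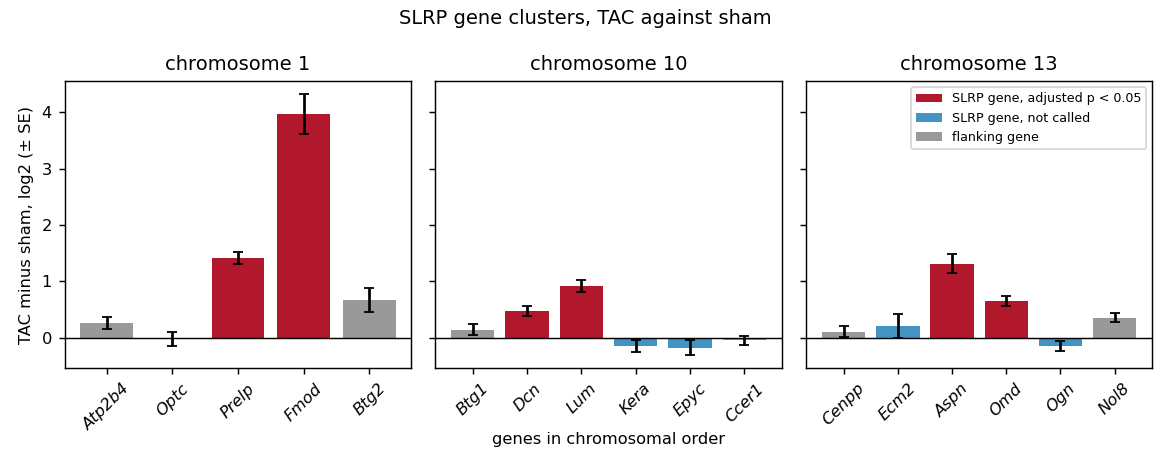
TAC minus sham difference (log2, bars are SE) of the genes in the 3 SLRP clusters, drawn in chromosomal order without distances, with 1 flanking gene on each side in grey. Fmod, Aspn and Lum are the highest bar of their clusters, and Optc, Kera, Epyc, Ecm2 and Ogn, in blue, were not called.

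Outside the 9 members, 6 other SLRP family genes were measured, most of them known from eye or cartilage. Of these 1 rose, the cartilage gene Chad (0.34, SE 0.10, adjusted p = 0.0359 in limma), and 0 fell, with a list median of -0.03. Chad averaged 5.05 in TAC and 4.71 in sham, the groups overlapped, and removing 1 array ended the call for 6 of the 9 arrays. Kera, Epyc, Ecm2, Optc and the retinal gene Nyx (-0.04) did not pass. Over all genes 11.3% were called higher and 10.7% lower, so 1 call among 6 genes says little of this list.

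Several molecules that SLRPs bind were higher as well. Over all genes the shares were 11.3% called higher and 10.7% called lower. Of 13 collagen genes 9 rose and 0 fell, with a median of 0.90. They included the type I chain Col1a2 (1.28, SE 0.10), the type V chains Col5a2 (2.03, SE 0.16) and Col5a1 (0.97, SE 0.08), which act in fibril nucleation, and Col12a1 (4.15, SE 0.36), a collagen of the fibril surface. Col12a1 averaged 8.46 in TAC and 4.31 in sham on its brightest probe set, and with the mean of all its probe sets it differed by 1.03. Of 12 measured growth factor and matrix genes 9 rose and 0 fell, with a median of 1.63. Tgfb2 rose by 2.04 (SE 0.08), the lysyl oxidase gene Lox by 3.27 (SE 0.19), Ccn2 by 1.82 (SE 0.11) and Ccn4 by 1.78 (SE 0.14). With the mean of all its probe sets Lox differed by 2.08.

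Of 14 genes for receptors of soluble SLRPs 10 rose and 1 fell, with a median of 0.75. On leaving out 1 array 8 to 10 of them rose. Among all genes 11.3% were called higher and 10.7% lower. Met, the hepatocyte growth factor receptor that decorin binds, rose by 2.09 (SE 0.16), the endocytic receptor gene Lrp1 by 1.00 (SE 0.10), the TGF-beta receptor gene Tgfbr1 by 0.89 (SE 0.09) and the hyaluronan receptor gene Cd44 by 1.05 (SE 0.11). The biglycan receptor genes Tlr4 and Tlr2 rose by 1.10 and 1.03. The gene that fell was Kdr (-0.25), which encodes a receptor of VEGF, and for 7 of the 9 arrays its call ended when that array was removed. With the mean of all probe sets of a gene Met differed by 1.19, and Tgfbr1 differed by 0.21 and was no longer called.

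Enzymes that build the sugar chains were tested as well. Of 21 genes for the linker and for chondroitin or dermatan sulfate 8 rose and 0 fell, with a median of 0.32, and without TAC replicate 1 the number that rose was 4. Without TAC replicate 2, TAC replicate 3 or sham replicate 3 it was 5. Dse and Dsel, the epimerases that turn chondroitin into dermatan sulfate, rose by 0.96 (SE 0.11) and 0.66 (SE 0.12), B3galt6 by 0.40 and Csgalnact2 by 0.36. The call of B3galt6 ended with the mean of its probe sets and that of Csgalnact2 without TAC replicate 3. Of 10 genes for keratan sulfate and tyrosine sulfation 1 rose, B3gnt2 (0.51, SE 0.09), and 0 fell, with a median of -0.01. A count of 1 in 10 is near the share of all genes, 11.3% called higher and 10.7% called lower. Among 13 genes for proteases and a protease enhancer 5 rose and 1 fell, with a median of 0.17. Mmp2 (1.09, SE 0.10), the procollagen proteinase enhancer gene Pcolce (1.13, SE 0.11), Adamts4 (2.34, SE 0.34) and Mmp14 (0.64, SE 0.10) rose, Adamts5 fell by 0.41, and Bmp1, which cleaves the biglycan propeptide, differed by 0.22 and did not pass. Over the 5 lists with 0 genes called lower in limma, 2 genes (B3gat3 and Tpst1) were lower at an unadjusted p below 0.05, and 1 was called lower when the variance was allowed to follow the mean.

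**Figure D4:**
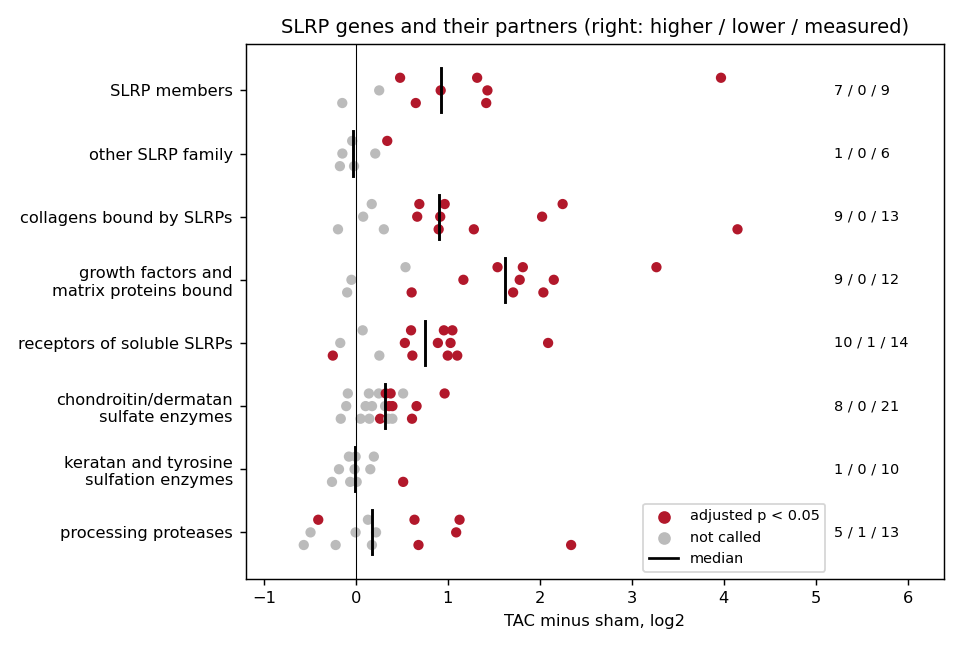
TAC minus sham difference (log2) of each SLRP gene and of each measured gene of 7 partner lists, red where adjusted p was below 0.05, with the median as a bar and the numbers higher, lower and measured at the right. The growth factor and matrix list has the highest median, 1.63, and the keratan and tyrosine sulfation list lies at -0.01.

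In bulk tissue, fewer or more cells of a type and less or more RNA per cell cannot be told apart. Counts of markers stand beside the shares of all genes, 11.3% called higher and 10.7% called lower. Cardiomyocyte markers had a mean level of 14.13 to 14.15 on the TAC arrays and 14.18 to 14.23 on the sham arrays, near the highest value of the whole table (14.80), and 0 of 8 were called. With the brightest probe set below 13, Tnnt2 (-1.40), Ryr2 (-0.69) and Myh6 (-0.50) were called lower. Of 8 markers of fibroblasts 2 rose and 1 fell, with a median of 0.09 and a mean level of 10.11 to 10.29 in TAC and 9.99 to 10.17 in sham. Pi16 rose by 1.69, Col15a1, a basement membrane collagen gene, rose by 1.11, and Scara5, an iron uptake gene, fell by 2.37. Averaged over its probe sets, Scara5 fell by 1.22. The 5 others, Lamc3, Tcf21, Pdgfra, Dpt and Gsn, differed by 0.13, 0.13, 0.04, -0.01 and -0.0049, none past the test. Of 7 markers of activated fibroblasts 6 rose and 1 fell, with a median of 2.31, and on leaving out 1 array 5 to 6 rose. Their mean level was 10.35 to 10.77 in TAC and 8.37 to 9.09 in sham. The smallest p was that of Ddah1 (1.45) and Thbs4 (3.64), and Acta2 fell by 0.53. Of 9 markers of tendon and cartilage cells 8 rose and 0 fell, with a median of 0.96. Their mean level was 7.995 to 8.25 in TAC and 6.02 to 6.73 in sham, with the smallest p for Tnmd (3.63) and Comp (4.53). Those that rose include Chad, which is also counted among the other SLRP family genes. The call of Chad ended for 6 of the 9 arrays when that array was removed. The markers of activated fibroblasts and of tendon and cartilage cells were thus higher in the same arrays as the SLRP genes, and their part in the SLRP differences was not tested.

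For each member the 2 other genes with the most similar course over the 9 arrays were found by the root mean square difference of log2 values, each gene set to its own sham mean. Rnase4 (0.051) and Zdhhc2 (0.052) were nearest to Dcn, and Comtd1 (0.078) and Emp1 (0.080) to Bgn. Nearest to Aspn were Syn2 (0.112) and Cldn23 (0.131), and nearest to Lum were Sema3d (0.095) and the dermatan sulfate epimerase gene Dse (0.102). Prelp lay nearest to Pdpn (0.077) and Ace (0.080), the angiotensin-converting enzyme gene, and Omd to Serping1 (0.077) and Cd302 (0.083). The genes nearest to Fmod lay farther away, at Pamr1 (0.416) and the nicotinamide riboside kinase gene Nmrk2 (0.434). The measure is not scaled, so it tends to be larger for genes that vary more, and Fmod itself differed by 3.97. Distances of different members are therefore not comparable. Ogn lay nearest to Phf2 (0.053) and Rnf166 (0.056), and Podn to Cchcr1 (0.064) and Hpn (0.075). With the mean of all probe sets of a gene Emp1 differed by 0.69 between TAC and sham, against 1.38 on its brightest probe set, and Syn2 by 0.51, against 1.34. Sema3d then differed by 0.52, against 0.92, and Cd302 by 0.35, against 0.69. Phf2 differed by -0.03, against -0.13, while Rnf166 differed by -0.32, against -0.18, and was called lower. Small values of this measure describe these 9 arrays and say nothing of shared control.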

How the data were processed

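Left ventricular RNA of 9 samples was measured on Affymetrix mouse arrays. The log2 values are deposited RMA signals; the submitters' processing notes name RMA, without a version. Every array had a median of 6.5661, and the number of arrays limits the precision. No genome build of the arrays is given in the sources used here. All 9 columns were used and no 2 were identical.

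The 64 control probe sets were left out. Of 45037 others, 34945 had 1 gene symbol and 932 several, and 9160 were unnamed here. RefSeq gene IDs matched 34741 and changed 0 symbols. The brightest probe set stood for each of 18193 genes. Limma 3.58.1 in R 4.3.3 (lmFit, eBayes, TAC minus sham, no covariate, two-sided) was fitted over all 45037, with 7 residual and 3.63 prior degrees of freedom and Benjamini-Hochberg adjustment, threshold 0.05. The fit was tested on simulated data with 200 changed probe sets. It called 46% of those changed by 0.5 on the log2 scale, 82% by 1 and 100% by 2. Of 162 calls 7 were false. In the data 3996 probe sets were called higher, so the adjustment was less strict there and these shares do not carry over to it. Small differences can still go uncalled. Pairs used exact permutation over 126 splits.

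Members, lists and tests were chosen with earlier results of these data known. Named were every member and other SLRP gene, up to 4 called genes of the smallest p in each partner list and up to 2 in each marker list, and the 2 genes most like each member. Bmp1, Tlr2, Tlr4, Acta2, the other fibroblast and atrial markers, Wt1, the flanking genes and genes that complete a count of 5 or fewer were named outside that rule after their values were seen. The 17 lists held 161 genes, of which 155 were measured and the others were not analysed here. Alternatives were the gene as unit, the mean of probe sets, a limit of 13 on brightness, a filter on dim probe sets, trend with robust fitting, array weights, median centring, cyclic loess, an adjusted p below 0.01, a test against 1.5-fold, and leaving out each array. Added after seeing the data were the use of probe sets without _x_at or _s_at and leaving out a pair of arrays.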

Additional observations from a re-analysis of the deposited data

Results flagged for a closer look

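TAC replicate 4 stood apart from the other TAC arrays in 2 of the 9 members. Its Dcn value was 12.96, where the nearest TAC array had 13.30, and its Aspn value was 9.886, where the nearest had 10.63. In each case the gap to the nearest array was a larger part of the whole range, 0.860 for Dcn and 0.974 for Aspn, than Dixon's 95% limit for 4 samples allows. With 18 groups of values tested, chance gives about 1 such result in 20. Both values still lay above every sham array, and without this array the differences were 0.57 for Dcn and 1.51 for Aspn. Of the 17 partner and marker lists, 11 also had their lowest TAC mean on this array, collagens and the markers of fibroblasts, activated fibroblasts and cardiomyocytes among them, and 6 had it on another array, macrophage and endothelial markers among them. The part of these in the SLRP values was not tested.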

How the results depend on the processing

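The count of 7 members called higher was 6 with the mean of all probe sets, where Dcn was lost, 8 with array weights and 7 to 8 on leaving out 1 array, where Podn was gained without sham replicate 1. It was 3 in a test against a 1.5-fold difference (Fmod, Bgn and Prelp), which asks for more than a nonzero difference, and 7 in all other alternatives. No member was called lower in any alternative and no called direction reversed. The 76 called genes of all lists together were 32 against 1.5-fold and 66 to 81 on leaving out 1 array. All 7 pair differences passed in each alternative run, but several of these runs could not have failed. Groups that do not overlap stay apart when 1 array is left out, and the smallest possible p was still below 0.05. The limit on brightness kept the same probe sets of the members. Only the mean of probe sets, cyclic loess and the use of probe sets without _x_at or _s_at could have changed a pair result. Of the 18 most similar genes, 7 to 12 were kept on leaving out 1 array, so these names depend on single arrays. Fmod differed by 3.33 to 4.25 over all alternatives and Ogn by -0.19 to -0.06. No paired analysis was possible because the replicate numbers are only the order of the samples.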

Other observations

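Markers of other cell types were set beside the SLRP genes as values. Among all genes 11.3% were called higher and 10.7% lower, and a count of 1 in a list of 7 or 8 is near these shares. Of 7 macrophage markers 5 rose and 0 fell, with a median of 0.42, with the smallest p for Adgre1 (0.97) and Fcgr1 (1.26). On leaving out 1 array 4 to 6 of them rose. Cd68 (0.47) and Cd163 (-0.40, adjusted p = 0.0722 in limma) did not pass. Cd163 went the other way, and was called lower when the variance was allowed to follow the mean. Of 8 markers of smooth muscle cells and pericytes 1 rose, Tagln (0.53), and 4 fell, with a median of -0.23. Those with the smallest p were the potassium channel subunit gene Abcc9 (-0.69) and Smtn (-0.45), and the other two were Myh11 (-0.59) and Kcnj8 (-0.34). Of 7 endothelial markers 0 rose and 1 fell, Kdr (-0.25), with a median of -0.10.

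Of 7 epicardial and mesothelial markers 2 rose, the keratin genes Krt18 (3.05) and Krt8 (0.58), and the epicardial factor gene Wt1 differed by 0.16 (adjusted p = 0.694 in limma). Of 4 atrial markers Dkk3 (3.07) and Myl4 (0.45) rose, and Sln and Myl7 differed by -0.18 and 0.42 without passing. The call of Myl4 ended for 4 of the 9 arrays when that array was removed, and with the mean of its probe sets, where it differed by 0.16. Of 8 cardiomyocyte and 3 measured adipocyte markers none was called in either direction in limma. Over the marker lists, 4 genes reached an unadjusted p below 0.05 in a direction without a call, and 3 passed there when the variance was allowed to follow the mean. With the mean of all probe sets 4 cardiomyocyte markers were called lower, Tnnt2 (-0.48), Ryr2 (-0.46), Myh6 (-0.28) and Tnni3 (-0.16).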
